A study of Mus musculus with 12 samples.

Results

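Cd36, Msr1, Lpl, Plin2, Fabp4, Fabp5, Pparg, Cpt1a, Hadha and Hadhb are the genes described here. They were chosen by name, for their roles in lipid scavenging, storage and fatty acid oxidation, with earlier results of these data known. All probe sets of these genes were followed across the 6 groups of the study. They are 10 of the 19938 genes tested, read by 12 of the 35556 probe sets with values. No member was lost to a filter, since no filter on low values was applied. The samples were peritoneal macrophages elicited with thioglycollate from C57BL/6 mice, which were fed a high-fat diet or chow over 12 weeks, starting at 6 weeks of age. Macrophages of each diet were given red blood cells (RBC) of mice on the high-fat diet, RBC of mice on chow, or no RBC. High-fat macrophages with these 3 treatments are labelled HHF, HC and HNR, and chow macrophages CHF, CC and CNR. Each group had 2 Affymetrix Mouse Gene 1.0 ST arrays, numbered as separate animals, so p-values measure the spread between 2 samples a group. The labels read here do not give the time of exposure, the animals' sex, the pooling of RBC donors, or whether 1 animal gave cells for all 3 treatments.

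Macrophages take up modified lipoproteins and free fatty acids through scavenger receptors, carry the fatty acids on small binding proteins, and store the surplus as triglyceride and cholesteryl ester in lipid droplets. Fatty acids are burned by beta-oxidation, after long-chain acids have entered the mitochondrion through the carnitine shuttle. PPAR gamma, a nuclear receptor that binds fatty acids, is known to drive several of the uptake and binding genes in macrophages, and lipid-laden macrophages (foam cells) are known from atheroma and from adipose tissue in obesity.

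Values are the deposited log2 signals per probe set. They compare arrays for 1 gene but not 1 gene with another. Replicate arrays correlated at 0.994 to 0.997 over all genes, with the lowest value in HNR. The 2 CNR arrays stood a little apart from the rest, with a median correlation with the other arrays of 0.985 and 0.984, against 0.990 to 0.994 for the others. Both are the controls of 3 comparisons made here: high-fat against chow macrophages without RBC, RBC exposure of chow macrophages, and the difference of the RBC response between diets. Those 3 comparisons share arrays and are not independent of each other. In these bulk samples fewer cells of a type and less RNA per cell cannot be told apart.

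Cd36, Fabp4, Fabp5, Pparg, Cpt1a, Hadha and Hadhb had their lowest group mean in the unexposed chow macrophages, Msr1 its highest there. In unexposed high-fat against unexposed chow macrophages (HNR minus CNR), 5 of 10 members were higher and 0 lower: Hadhb, Cpt1a, Fabp4, Pparg and Cd36. A gene was called at an adjusted p below 0.05 in limma, with Benjamini-Hochberg adjustment over all 19938 genes, of which 13.9% were called in this comparison (8.12% higher, 5.82% lower). The median difference of the members was 0.30 on the log2 scale, against -0.01 over all genes. With RBC (HHF and HC minus CHF and CC), Hadhb alone of the 10 was called, higher, where 4.85% of all genes were called (2.2% higher, 2.65% lower), and the members' median was 0.04. RBC exposure of chow macrophages (CHF and CC minus CNR) raised 4 of 10, Fabp4, Hadhb, Cpt1a and Fabp5, and lowered 0, with a median of 0.19, where 12.7% of all genes were called (8.22% higher, 4.51% lower). RBC exposure of high-fat macrophages (HHF and HC minus HNR) called 0 of 10 in limma, with 1 member (Pparg) at an unadjusted p below 0.05, where 1.08% of all genes were called (0.878% higher, 0.201% lower). The test of the difference between these 2 responses called Fabp4 and Hadhb, 2 of 10 members, both with a smaller response in high-fat macrophages, where 5.67% of all genes were called (2.57% with a larger and 3.1% with a smaller response). With 10 members these counts rest on few genes, and their share against the background was not tested. The counts moved with single arrays: without CNR replicate 2 the members called were 0 for RBC exposure of chow macrophages, 0 for the difference of responses and 3 for diet without RBC. For RBC exposure of chow macrophages the count was 2 without CC replicate 1, CHF replicate 1 or CNR replicate 1. For diet without RBC it was 3 without CNR replicate 1 or HNR replicate 2, and for the difference of responses it was 1 without replicate 1 of CC, CHF, HC or HHF, or without HNR replicate 2.

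**Figure D1:**
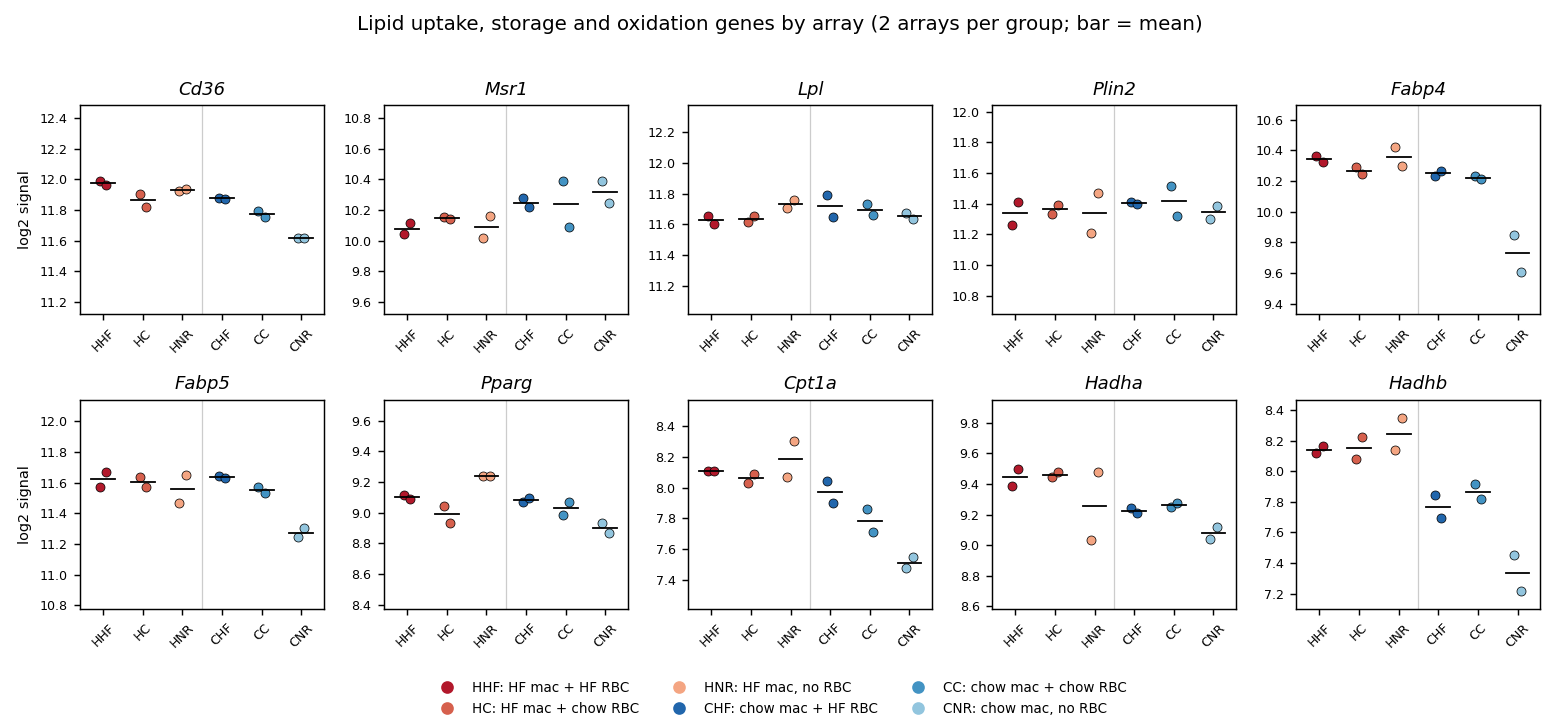
Log2 signal of each of the 10 genes (panels) on each of the 12 arrays, with groups on the horizontal axis in the order HHF, HC, HNR, CHF, CC, CNR; points are arrays and bars are means of 2 arrays. Hadhb, Cpt1a, Fabp4, Fabp5 and Cd36 lie lowest in the CNR arrays, whereas the arrays of Lpl and Plin2 overlap between groups.

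Cd36, a scavenger receptor that takes up oxidised lipoproteins and long-chain fatty acids, was higher in unexposed high-fat than in unexposed chow macrophages. Without RBC it read 11.92 and 11.94 in high-fat macrophages, against 11.62 and 11.62 in chow macrophages. With high-fat RBC it read 11.99 and 11.96 in high-fat macrophages, against 11.88 and 11.87 in chow macrophages. With chow RBC the values were 11.91 and 11.82 in high-fat macrophages, against 11.79 and 11.75 in chow macrophages. Both CNR arrays lay below the other 10, and the exposed arrays of the 2 diets overlapped. The difference without RBC was 0.31 ± 0.09 (SE), or 1.24-fold (limma, adjusted p = 0.031). With RBC it was 0.09 ± 0.06 (adjusted p = 0.54). RBC exposure gave a value of 0.21 ± 0.08 in chow macrophages (adjusted p = 0.094), which missed the threshold, and -0.01 ± 0.08 in high-fat macrophages (adjusted p = 0.98). The call without RBC was lost when any of 6 arrays was left out, with adjusted p between 0.052 (without either CHF array) and 0.13 (without CNR replicate 2); it was 0.11 without CNR replicate 1, 0.067 without HNR replicate 1 and 0.078 without HNR replicate 2. It was also lost with quantile normalization, with array weights and in a fit to the compared arrays only.

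Msr1 and Lpl, the other uptake genes, did not pass the threshold in any of the comparisons. Msr1, the class A scavenger receptor for modified lipoproteins, read 10.01 and 10.16 in HNR, against 10.39 and 10.25 in CNR, a difference of -0.23 ± 0.11 (limma, adjusted p = 0.22). Its 6 high-fat arrays spanned 10.01 to 10.16 and its 6 chow arrays 10.09 to 10.39, so the diets overlapped in this range. Lpl, the lipase that frees fatty acids from triglyceride-rich lipoproteins, had the narrowest range of the members, 11.60 to 11.79 over the 12 arrays. Its largest difference was -0.16 ± 0.11, in the RBC response of high-fat minus that of chow macrophages.

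Fabp4 and Fabp5, the fatty acid binding proteins of macrophages and adipocytes, were low in the unexposed chow macrophages. Without RBC, Fabp4 read 10.42 and 10.30 in high-fat macrophages, against 9.85 and 9.61 in chow macrophages. With high-fat RBC it read 10.36 and 10.32 in high-fat macrophages, against 10.23 and 10.27 in chow macrophages. With chow RBC it read 10.29 and 10.24 in high-fat macrophages, against 10.23 and 10.21 in chow macrophages. The 10 arrays other than CNR thus lay within 10.21 to 10.42, with both CNR arrays below them. The difference between diets without RBC was 0.63 ± 0.10, or 1.55-fold (limma, adjusted p = 0.00066), and it stayed past the threshold with any array left out. With RBC it was 0.07 ± 0.07 (adjusted p = 0.73). RBC raised Fabp4 in chow macrophages by 0.51 ± 0.09, or 1.42-fold (adjusted p = 0.0016), and the value in high-fat macrophages was -0.05 ± 0.09 (adjusted p = 0.88). The test of the difference between these responses gave -0.56 ± 0.12 (adjusted p = 0.016). Without CNR replicate 2 the response in chow macrophages missed the threshold (adjusted p = 0.058), as did the difference of responses (adjusted p = 0.12), which was also lost without HNR replicate 1 (adjusted p = 0.055).

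Fabp5 had a similar spread of arrays. It read 11.25 and 11.30 in CNR, and the other 10 arrays lay between 11.47 (HNR replicate 1) and 11.67 (HHF replicate 2). RBC raised it in chow macrophages by 0.32 ± 0.08, or 1.25-fold (limma, adjusted p = 0.023), and the value in high-fat macrophages was 0.06 ± 0.08 (adjusted p = 0.87). The test of the difference gave -0.27 ± 0.12 (adjusted p = 0.26), so a difference of the Fabp5 response between diets was not shown. High-fat minus chow macrophages without RBC gave 0.28 ± 0.10 (adjusted p = 0.070), which passed without HNR replicate 1 (adjusted p = 0.036). The RBC call was lost without any of 5 arrays: CC replicate 1 (adjusted p = 0.054), CHF replicate 1 (0.063), CHF replicate 2 (0.058), CNR replicate 1 (0.13) and CNR replicate 2 (0.11). The second Fabp5 probe set gave 0.31 ± 0.09 for RBC exposure of chow macrophages (limma, adjusted p = 0.033 over 21789 probe sets). For high-fat minus chow macrophages without RBC it gave 0.24 ± 0.10 (adjusted p = 0.14). For the difference of responses it gave -0.20 ± 0.12 (adjusted p = 0.44).

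Plin2, the protein that coats lipid droplets and a usual marker of lipid-laden macrophages, showed no difference past the threshold in any comparison. It read 11.21 and 11.47 in HNR, against 11.30 and 11.39 in CNR, a difference of -0.00 ± 0.11 (limma, adjusted p = 0.99). All 12 arrays lay within 11.21 to 11.51, and every group overlapped others. The response to RBC was 0.01 ± 0.10 in high-fat macrophages and 0.07 ± 0.10 in chow macrophages (adjusted p = 0.70 in chow macrophages).

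Pparg, which encodes PPAR gamma, was highest in unexposed high-fat macrophages. It read 9.24 and 9.24 in HNR, against 8.93 and 8.87 in CNR, and the difference was 0.34 ± 0.09, or 1.26-fold (limma, adjusted p = 0.024). Both HNR arrays lay above the other 10 arrays, which spanned 8.87 to 9.12. In the exposed cultures it read 9.12 and 9.09 (HHF) and 9.05 and 8.93 (HC), against 9.07 and 9.10 (CHF) and 8.99 and 9.07 (CC), and the diets overlapped, with a difference of -0.01 ± 0.07. The RBC response was -0.19 ± 0.08 in high-fat macrophages (adjusted p = 0.40) and 0.15 ± 0.08 in chow macrophages (adjusted p = 0.22), and the test of the difference missed the threshold (-0.35 ± 0.11, adjusted p = 0.10). The call without RBC was lost without any of 4 arrays: CNR replicate 1 (adjusted p = 0.065), CNR replicate 2 (0.15), HNR replicate 1 (0.061) and HNR replicate 2 (0.062), and also with array weights or with the compared arrays only.

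Cpt1a and Hadhb, at the entry of mitochondrial fatty acid oxidation and in its last steps, gave the largest differences of the members between macrophage diets without RBC; whether they exceed those of other members was not tested. Cpt1a is the liver-type carnitine palmitoyltransferase, the rate-limiting enzyme of long-chain fatty acid entry. Without RBC it read 8.07 and 8.31 in high-fat macrophages, against 7.48 and 7.55 in chow macrophages. With high-fat RBC it read 8.11 and 8.11 in high-fat macrophages, against 8.04 and 7.90 in chow macrophages. With chow RBC it read 8.03 and 8.09 in high-fat macrophages, against 7.86 and 7.71 in chow macrophages. Both CNR arrays were the lowest of the 12. Without RBC the difference was 0.68 ± 0.11, or 1.60-fold (limma, adjusted p = 0.00057), past the threshold with any array left out. With RBC it was 0.21 ± 0.08 (adjusted p = 0.16). RBC raised Cpt1a in chow macrophages by 0.37 ± 0.09, or 1.29-fold (adjusted p = 0.019), against a value of -0.10 ± 0.09 in high-fat macrophages (adjusted p = 0.77). The difference of these responses was -0.47 ± 0.13 (adjusted p = 0.054), just outside the threshold; the adjusted p was 0.025 without HNR replicate 1. The RBC call in chow macrophages was lost without CC replicate 1 (adjusted p = 0.057), CHF replicate 1 (0.068), CNR replicate 1 (0.13) or CNR replicate 2 (0.098).

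Hadha and Hadhb encode the alpha and beta subunits of the mitochondrial trifunctional protein, which carries out the last steps of each round of long-chain beta-oxidation. Without RBC, Hadhb read 8.14 and 8.35 in high-fat macrophages, against 7.46 and 7.22 in chow macrophages. With high-fat RBC it read 8.12 and 8.16 in high-fat macrophages, against 7.84 and 7.69 in chow macrophages. With chow RBC it read 8.08 and 8.23 in high-fat macrophages, against 7.91 and 7.82 in chow macrophages. The arrays fell into 3 ranges that did not overlap, with all high-fat macrophages highest, exposed chow macrophages between and CNR lowest. The difference between diets was 0.91 ± 0.12 without RBC, or 1.88-fold (limma, adjusted p = 8.1e-05), past the threshold with any array left out, and 0.33 ± 0.08 with RBC, or 1.26-fold (adjusted p = 0.032). RBC raised Hadhb in chow macrophages by 0.48 ± 0.10, or 1.40-fold (adjusted p = 0.0056), the value in high-fat macrophages was -0.10 ± 0.10 (adjusted p = 0.79), and the difference of responses was -0.58 ± 0.14 (adjusted p = 0.027). Without CNR replicate 2 the adjusted p was 0.14 for the RBC response and 0.18 for the difference of responses. The difference of responses was also lost without CC replicate 1 (0.057), CHF replicate 1 (0.068), HC replicate 1 (0.060), HHF replicate 1 (0.051) or HNR replicate 2 (0.092). The difference between diets with RBC was lost when any of the 8 exposed arrays was left out (adjusted p between 0.052 and 0.15).

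The partner subunit Hadha gave no call. It read 9.04 and 9.48 in HNR, against 9.04 and 9.12 in CNR, a difference of 0.17 ± 0.12 (limma, adjusted p = 0.43). The HNR replicates lay near opposite ends of its range. With RBC it read 9.39 and 9.50 (HHF) and 9.45 and 9.47 (HC) in high-fat macrophages, against 9.24 and 9.21 (CHF) and 9.25 and 9.28 (CC) in chow macrophages. These 2 sets of 4 arrays did not overlap, and their difference of 0.21 ± 0.09 missed the threshold (adjusted p = 0.25). Leaving out HNR replicate 1 brought the difference without RBC past the threshold (adjusted p = 0.030), and leaving out HNR replicate 2 did so for the RBC response of high-fat macrophages (adjusted p = 0.041, against 0.56 with all arrays). Whether Hadha and Hadhb differ in response was not tested. Hadhb is read by 2 probe sets, and RefSeq lists a pseudogene, Hadhb-ps, on chromosome 2, so which copy each probe set reads is uncertain. The second Hadhb probe set gave 1.00 ± 0.11 for high-fat minus chow macrophages without RBC (limma, adjusted p = 2.8e-05 over 21789 probe sets) and 0.51 ± 0.09 for RBC exposure of chow macrophages (adjusted p = 0.0029). For the difference of responses it gave -0.67 ± 0.13 (adjusted p = 0.0093). Leaving out arrays was not tried with this probe set.

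The upstream sequences of 3 of these genes are shown because their products act in uptake (Cd36), mitochondrial entry (Cpt1a) and oxidation (Hadhb), and each was higher in unexposed high-fat than in unexposed chow macrophages. They are the 250 bases before the transcript start that the RefSeq promoter table gives for the gene in build GRCm38.p6, written 5′ to 3′ on the gene's strand. For Cd36 and Cpt1a that start lies inside the annotated span of the gene, which begins farther upstream, so these are not the only possible starts. They lie at chr5:30155003-30155252 on the plus strand for Hadhb, chr19:3323051-3323300 on the plus strand for Cpt1a and chr5:17835897-17836146 on the minus strand for Cd36. Capitals mark matches on either strand to AGGTCA, the half-site of nuclear receptors such as the PPARs, and to GGGCGG, the GC box.
Hadhb: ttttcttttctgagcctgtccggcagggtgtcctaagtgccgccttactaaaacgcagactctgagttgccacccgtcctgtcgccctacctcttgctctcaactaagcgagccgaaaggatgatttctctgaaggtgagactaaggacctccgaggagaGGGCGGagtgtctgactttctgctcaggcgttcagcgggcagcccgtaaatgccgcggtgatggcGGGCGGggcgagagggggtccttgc
Cpt1a: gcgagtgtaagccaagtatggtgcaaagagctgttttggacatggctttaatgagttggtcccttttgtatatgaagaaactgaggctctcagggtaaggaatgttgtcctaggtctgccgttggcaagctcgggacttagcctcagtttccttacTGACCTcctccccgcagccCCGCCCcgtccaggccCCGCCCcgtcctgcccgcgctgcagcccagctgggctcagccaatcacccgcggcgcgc
Cd36: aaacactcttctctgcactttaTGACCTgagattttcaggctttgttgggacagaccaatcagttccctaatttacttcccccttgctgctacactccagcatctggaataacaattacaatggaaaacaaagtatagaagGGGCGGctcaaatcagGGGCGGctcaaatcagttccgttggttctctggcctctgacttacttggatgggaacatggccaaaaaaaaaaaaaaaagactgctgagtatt
Hadha starts on the opposite strand from the same stretch, with a window at chr5:30154981-30155230, no gene between, and 228 bases shared with the Hadhb window. Of the 10 members, 6 had a window, and Pparg had 3, which made 8 windows. AGGTCA occurred in 5 of the 8 windows, once each in those of Cd36, Cpt1a and Plin2 and in 2 of the 3 of Pparg, and in neither the Hadha nor the Hadhb window. It was present in 14.0% of 32851 windows of the same length. GGGCGG occurred 2 times each in the Cd36, Cpt1a and Hadhb windows and in 1 Pparg window. It occurred once in the Hadha window and in another Pparg window, and not in those of Plin2 and the remaining Pparg start. It was present in 32.7% of all windows. The repeat AGGTCANAGGTCA, 2 half-sites with 1 base between them, was in none of the 8 windows and in 0.0335% of all. The same held for TCAAGGTCA (0.387% of all) and the E-box CACGTG (6.02% of all). These are matches of letters and not measured sites.

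**Figure D2:**
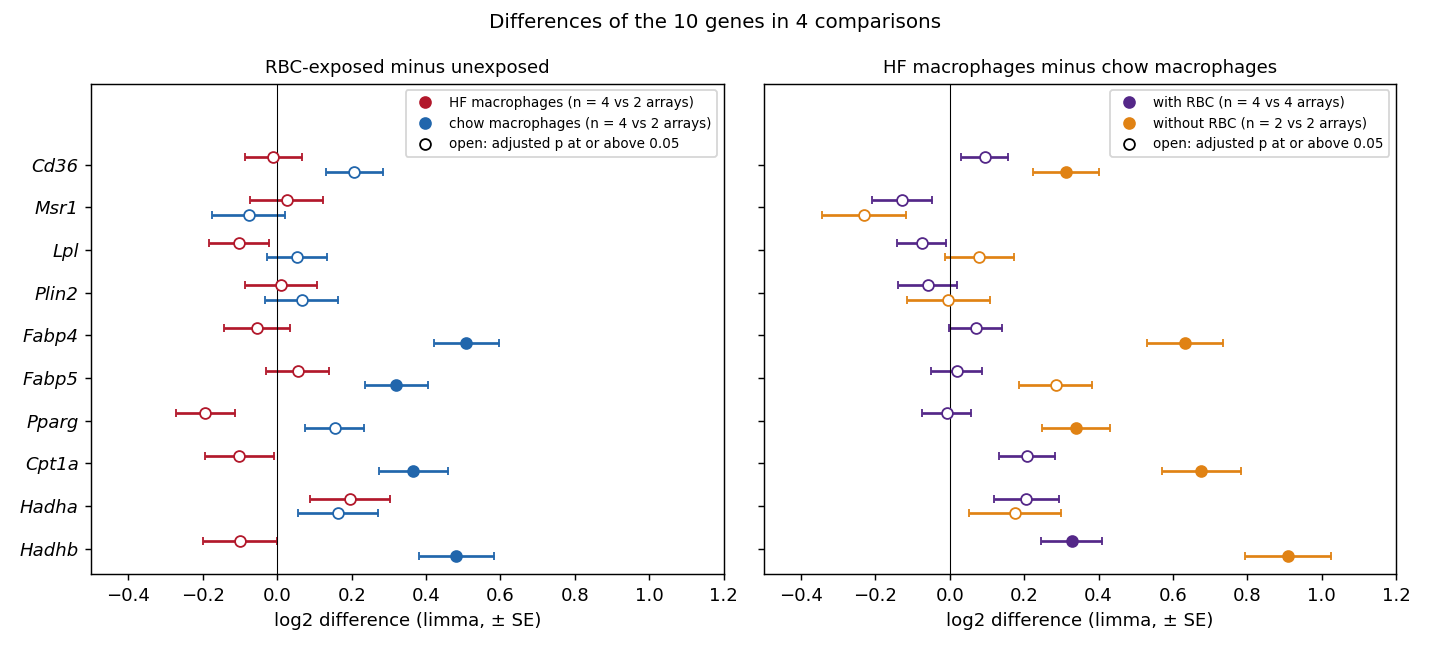
Log2 differences from limma (horizontal axis; points are estimates, bars are ± SE, filled points passed an adjusted p of 0.05) for the 10 genes (vertical axis) in 4 comparisons. Hadhb, Cpt1a and Fabp4 lie farthest to the right for high-fat minus chow macrophages without RBC, at 0.91, 0.68 and 0.63.

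High-fat RBC were set against chow RBC to see whether the diet of the RBC donor moved these genes, and it gave no call in the members. Averaged over both macrophage diets, estimates ran from -0.05 (Hadhb) to 0.12 (Cpt1a), and the 95% intervals of all 10 lay between -0.23 and 0.28. Over all genes 0.01% were called. Within high-fat macrophages estimates spanned -0.07 to 0.11, with 0.0251% of all genes called. Within chow macrophages they spanned -0.10 to 0.19, and the difference between macrophage diets spanned -0.14 to 0.09. No member had an unadjusted p below 0.05 in any of these comparisons. Over all genes 0 were called by limma within chow macrophages, where 555 had an unadjusted p below 0.05, and 0 for the difference between macrophage diets, where 718 did. A difference within chow macrophages of up to 0.42 on the log2 scale lay inside the widest interval, so small effects of RBC diet were not detectable with these arrays.

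The genes around the members were described with 5 lists, chosen with earlier results of these data known. Some genes of mitochondrial beta-oxidation were called in the same comparisons as Hadhb and Cpt1a, and most of the list was not. In unexposed high-fat against unexposed chow macrophages, 11 of 25 measured genes of this list were higher, 0 lower and 14 not called by limma, where 8.12% of all genes were called higher. The list's median difference was 0.43, against -0.01 over all genes. Of these 25 genes, 22 are not among the members described above, and 9 of the 22 were higher. Leaving out each array gave 8 to 12 higher. Hadh, the short-chain hydroxyacyl-CoA dehydrogenase, read 8.01 and 8.32 in HNR, against 7.12 and 7.11 in CNR, and differed by 1.05 ± 0.12 (adjusted p = 4.0e-05). Acaa2, the mitochondrial thiolase, differed by 0.81 ± 0.12, Eci2, an enoyl-CoA isomerase, by 0.79 ± 0.13, and Decr1, a dienoyl-CoA reductase, by 0.65 ± 0.11. Cpt1a, the entry enzyme, was called as well. Cpt2, the inner carnitine palmitoyltransferase, read a difference of -0.05 ± 0.13 (adjusted p = 0.87) and was chosen for naming after its value was seen. A pattern by step of the pathway was not tested. With RBC, 4 of 25 were higher and 0 lower by limma, with a median of 0.16, among them Hadh (0.49 ± 0.09, adjusted p = 0.0038), where 2.2% of all genes were called higher. Without any single one of the exposed arrays that count was 1 or 2, and with no moderation of the variance it was 0.

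In the peroxisomal oxidation list, 6 of 16 measured genes were higher, 0 lower and 10 not called by limma in unexposed high-fat macrophages, with a median of 0.32. Over all genes 8.12% were called higher there. Abcd2, a peroxisomal importer of very long-chain acyl-CoA, read 6.09 and 5.99 in HNR, against 4.71 and 4.34 in CNR, a difference of 1.52 ± 0.12 (adjusted p = 9.6e-07). Its exposed chow arrays lay at 5.61 to 5.64, below all 6 high-fat arrays (5.99 to 6.25) and above CNR. Hsd17b4, the D-bifunctional protein of the same pathway, differed by 0.98 ± 0.10, Crot, the carnitine octanoyltransferase, by 0.78 ± 0.10, and Phyh, the phytanoyl-CoA hydroxylase, by 0.70 ± 0.10. With RBC, 4 of 16 were higher and 0 lower, where 2.2% of all genes were called higher, with Abcd2 at 0.50 ± 0.09 and Acox3, an acyl-CoA oxidase, at 0.46 ± 0.08.

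**Figure D3:**
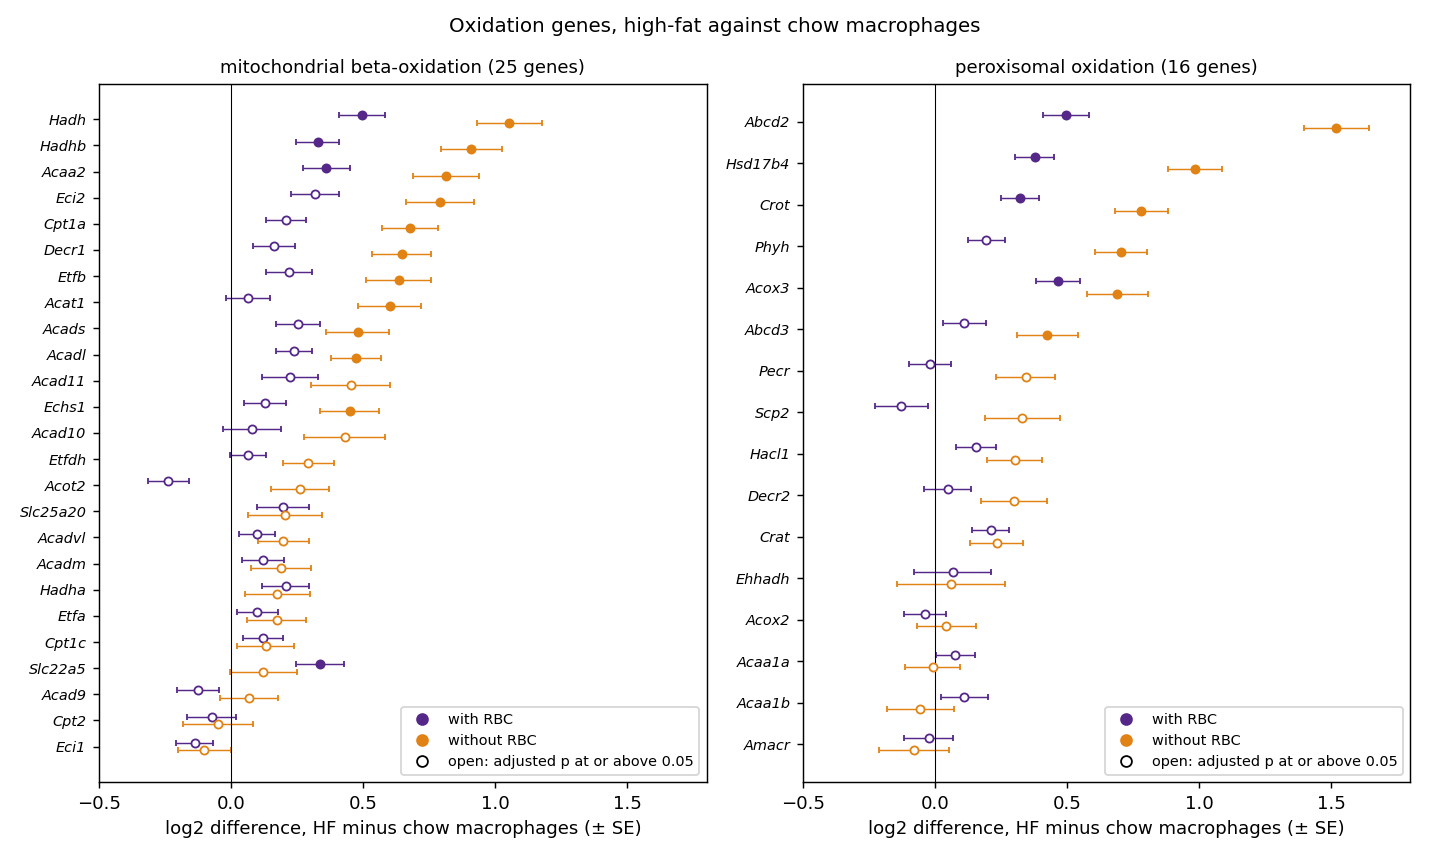
Log2 differences of high-fat minus chow macrophages (horizontal axis; points are limma estimates, bars are ± SE) for the measured genes of mitochondrial beta-oxidation and of peroxisomal oxidation (vertical axis), without RBC and with RBC. Abcd2 (1.52 without RBC) and Hadh (1.05) lead the lists without RBC, and both are smaller with RBC (0.50 and 0.49).

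RBC exposure of chow macrophages gave 11 of 25 mitochondrial genes higher and 0 lower by limma (median 0.23, against -0.03 over all genes). It gave 6 of 16 peroxisomal genes higher and 0 lower (median 0.22). Over all genes 8.22% were called higher and 4.51% lower there. A 1.5-fold minimum left 2 mitochondrial and 3 peroxisomal genes higher, and with no moderation of the variance 6 mitochondrial genes were higher. Hadh rose by 0.73 ± 0.11 (adjusted p = 0.00044), Decr1 by 0.60 ± 0.10 and Abcd2 by 1.10 ± 0.11 (adjusted p = 1.2e-05). The mitochondrial count was 2 without CNR replicate 2, 5 without CNR replicate 1, and 7 without CC replicate 1 or CHF replicate 1. In high-fat macrophages RBC gave 0 of 25 and 0 of 16, with 2 of 25 higher without HNR replicate 2. Over all genes 0.878% were called higher on RBC exposure of high-fat macrophages. The test of the difference between these responses called 4 of 25 mitochondrial and 4 of 16 peroxisomal genes, all lower, where 3.1% of all genes were called lower. The 4 mitochondrial genes Hadhb, Hadh, Acat1 and Acot2 all lost their call without CC replicate 1 (adjusted p = 0.057, 0.065, 0.078 and 0.089), and each was also lost without other arrays (any of 11 in all for Acat1, 10 for Hadh and for Acot2, and 6 for Hadhb). Of the peroxisomal genes, Crot lost its call without any of 10 arrays, Phyh without any of 5, and Hsd17b4 without CNR replicate 2 (adjusted p = 0.078). Abcd2, at -1.02 ± 0.15 (adjusted p = 0.00088), kept its call with any array left out.

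The other 3 lists had genes on both sides. Of 26 measured genes of lipid storage and lipolysis, 5 were higher and 2 lower by limma in unexposed high-fat against unexposed chow macrophages. Over all genes 8.12% were called higher and 5.82% lower there. Lpin1, the phosphatidate phosphatase of triglyceride synthesis, read 6.58 and 6.75 in HNR, against 5.67 and 5.54 in CNR, and differed by 1.06 ± 0.12 (adjusted p = 2.5e-05). Mgll, the monoacylglycerol lipase, was higher by 0.70 ± 0.13. Of 21 uptake genes 4 were higher and 4 lower, and of 19 PPAR regulators and targets 5 were higher and 3 lower, and these lists share some genes with the members. The storage count of higher genes was 2 without CNR replicate 1, 3 without CNR replicate 2 and 2 on the arrays compared only. The PPAR count was 3 without CNR replicate 1, CNR replicate 2 or HNR replicate 1, and 3 with array weights or on the arrays compared only. Angptl4, a secreted inhibitor of lipoprotein lipase and a PPAR target, differed by 0.63 ± 0.10 (adjusted p = 0.0008), while Nr1h3, the liver X receptor alpha that senses oxysterols, fell by 0.71 on the log2 scale (SE 0.10). RBC exposure of chow macrophages gave 5 higher and 1 lower in the storage list, 3 and 2 in the uptake list, and 4 and 2 in the PPAR list. Over all genes 8.22% were higher and 4.51% lower there. A 1.5-fold minimum left 0, 1 and 0 higher, and these counts also moved with single arrays. In high-fat against chow macrophages with RBC the storage list had 2 higher and 0 lower, the uptake list 1 and 2, and the PPAR list 2 and 1. Over all genes 2.2% were higher and 2.65% lower with RBC. These higher counts moved with single arrays. The PPAR count was 0 without CC replicate 1, HC replicate 2 or any CHF or HHF array, and 1 without HC replicate 1 or either CNR array. The storage count was 1 without CC replicate 1, HC replicate 1, HHF replicate 2 or either CHF array, and the uptake count was 0 without CHF replicate 2 and 2 without HHF replicate 1.

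Some markers of other cells differed between the same groups. The marker counts below are to be read beside the shares of all genes called higher and lower. These shares were 8.12% and 5.82% in unexposed high-fat against unexposed chow macrophages, and 2.2% and 2.65% with RBC. For RBC exposure they were 8.22% and 4.51% in chow macrophages, and 0.878% and 0.201% in high-fat macrophages. For the difference of responses they were 2.57% and 3.1%. The labelled cell type was checked on Adgre1, the usual surface marker, and Csf1r, the receptor for the macrophage growth factor. Adgre1 spanned 8.92 to 9.17 on the 6 high-fat arrays and 9.39 to 9.53 on the exposed chow arrays, against 10.08 and 10.21 in CNR. It fell in unexposed high-fat against unexposed chow macrophages (-1.17 ± 0.11) and on RBC exposure of chow macrophages (-0.68 ± 0.09), the comparisons in which Hadhb, Cpt1a and Fabp4 rose. Csf1r did so too, at -0.81 ± 0.10 and -0.41 ± 0.09. The macrophage list as a whole did not follow them on RBC exposure of chow macrophages: 2 of 13 markers were higher and 3 lower by limma, with a median of 0.02, and its mean was 8.49 to 8.56 in exposed chow macrophages, against 8.49 to 8.53 in CNR. Mertk and Mrc1, receptors for dying cells and for mannose that were named after their values were seen, rose there by 0.66 ± 0.10 and 0.54 ± 0.08. Of 13 macrophage markers 3 were higher and 6 lower by limma in unexposed high-fat macrophages, and their mean level was 8.14 on both HNR arrays, against 8.49 and 8.53 in CNR.

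B cell markers followed the same groups. Their mean log2 level was 4.29 to 4.40 in HNR, against 4.96 to 5.07 in CNR, and 4.62 to 4.79 in exposed chow macrophages. In unexposed high-fat macrophages 1 of 10 was higher and 6 were lower by limma, with Cd79a, a part of the B cell receptor, at -2.19 ± 0.17, and RBC exposure of chow macrophages gave 0 higher and 4 lower. Adipocyte markers, 10 of which were measured, had a mean of 4.21 to 4.30 in HNR, against 4.23 to 4.40 in CNR. Adipoq and Lep, the adipocyte hormones, spanned 3.10 to 3.45 and 3.13 to 3.34 on the 12 arrays. Of the 10 adipocyte markers 0 were higher by limma in any comparison of macrophage diet or of RBC exposure. Since no detection calls were analysed, the lack of a call in markers reading as low as Adipoq and Lep says little. Fabp4, Lpl, Cd36 and Pparg are also adipocyte genes, and the part of adipocytes in their values was not tested. Plin4, a lipid droplet protein, was lower in HNR than in CNR, at -0.35 (adjusted p = 0.047), a call lost without any of 10 arrays.

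Mesothelial and fibroblast markers were, by their mean, lowest in the unexposed chow macrophages, where the called members were lowest too. Most markers of the list were not called. Their mean log2 level was 5.70 to 5.71 in HNR, 5.62 to 5.74 in exposed high-fat macrophages and 5.67 to 5.78 in exposed chow macrophages, against 5.50 and 5.54 in CNR. By limma 3 of 12 were higher, 0 lower and 9 not called in unexposed high-fat macrophages (median 0.10). RBC exposure of chow macrophages gave 4 higher, 0 lower and 8 not called (median 0.11). The difference of responses gave 0 higher, 4 lower and 8 not called (median -0.15). In high-fat against chow macrophages with RBC 0 were higher and 2 lower. Col1a2, a chain of type I collagen, gave 0.69 ± 0.09, 0.80 ± 0.08 and -0.65 ± 0.11 in these comparisons, each past the threshold with any array left out. Bpgm, a red-cell glycolytic enzyme on the erythroid list, was 0.75 ± 0.14 higher in unexposed high-fat macrophages and rose by 0.95 ± 0.12 with RBC in chow macrophages. Fscn1, an actin-bundling protein on the dendritic list, gave 1.04 ± 0.13 and 1.03 ± 0.11. Of these lists 1 of 11 erythroid and 1 of 9 dendritic markers were higher in unexposed high-fat macrophages (0 and 1 lower), and 2 and 1 on RBC exposure of chow macrophages (1 and 0 lower). The erythroid medians were -0.05 and -0.08 in these 2 comparisons, and the dendritic medians -0.18 and -0.09. The lower dendritic marker was Ccr7, at -0.63 ± 0.14 in unexposed high-fat macrophages. Alas2, on the erythroid list, rose by 0.86 ± 0.21 with RBC in chow macrophages.

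The mean levels of the neutrophil and platelet lists were higher in the cultures given RBC, though many of their markers were not called. Neutrophil markers averaged 5.98 to 6.29 on the exposed high-fat arrays and 6.11 to 6.23 on the exposed chow arrays, against 5.10 to 5.19 in HNR and 5.52 in CNR. Platelet markers averaged 6.74 to 7.22 and 6.70 to 7.16 in the exposed arrays of the 2 diets, against 5.90 to 6.02 in HNR and 6.03 to 6.09 in CNR. By limma 6 of 14 neutrophil and 4 of 8 platelet markers were higher in exposed high-fat macrophages, with 0 lower. In exposed chow macrophages 5 neutrophil and 5 platelet markers were higher and 1 neutrophil marker was lower. The neutrophil list's median difference was 0.34 in high-fat and 0.05 in chow macrophages, with 8 of 14 not called in each. The platelet list's was 0.56 and 0.81. Single genes weighed on the means: S100a9 rose by 6.28 ± 0.12 in high-fat and 5.24 ± 0.12 in chow macrophages, and Ppbp by 5.06 ± 0.26 and 3.82 ± 0.26. The origin of these transcripts was not tested. Cd36 is also a platelet gene. Of 11 T and NK cell markers 0 were called in any comparison. Of 11 eosinophil and mast cell markers 1 was higher and 1 lower in unexposed high-fat against unexposed chow macrophages. With RBC 1 was higher and 2 were lower, and RBC exposure gave 0 calls in macrophages of either diet. The part of any of these cell types in the differences of the members was not tested.

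**Figure D4:**
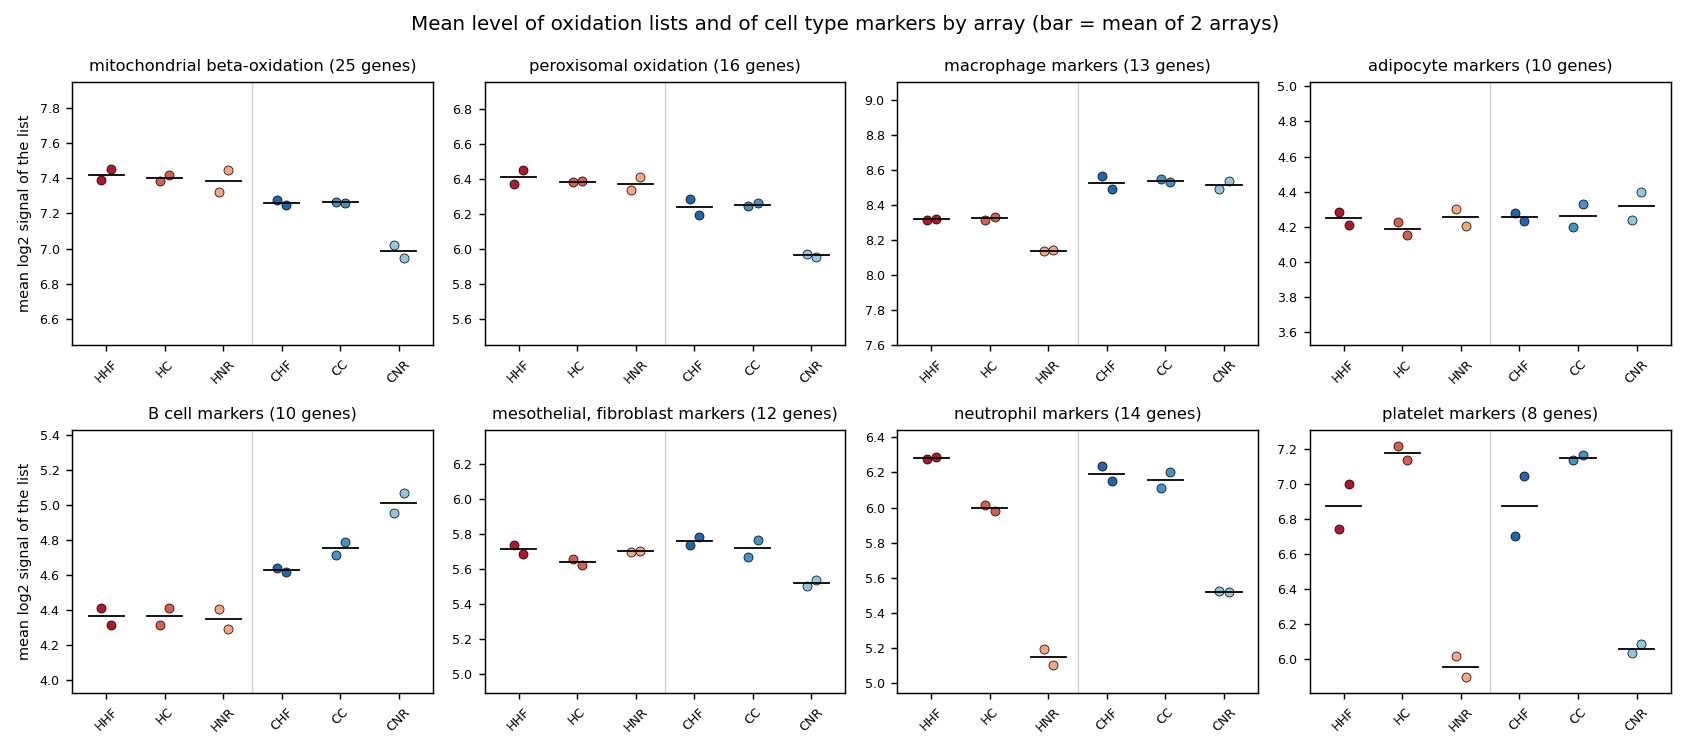
Mean log2 signal of oxidation lists and of cell type marker lists (panels) on each array, with groups on the horizontal axis in the order HHF, HC, HNR, CHF, CC, CNR; points are arrays and bars are means of 2 arrays. By these means, the oxidation lists are lowest in CNR, where B cell markers are highest. The means of mesothelial and fibroblast markers are also lowest in CNR, and those of neutrophil and platelet markers are higher in all exposed groups.

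Genes whose pattern was most like that of each member were taken as those with the highest Pearson r over the 12 arrays, as a description. A high r can come from shared differences between groups or from shared differences between replicates of a group, and these were not separated. For example, Plin2 read 11.21 and 11.47 on the 2 HNR arrays, and Fli1, named below, 7.97 and 8.37. For Hadhb these were Ccng1 (r = 0.98) and Svil (r = 0.98), and for Cpt1a Dock1 (r = 0.97) and Aldh9a1 (r = 0.97), an aldehyde dehydrogenase used in carnitine synthesis. For Fabp4 they were Erlec1 (r = 0.98) and Pdk1 (r = 0.98), a kinase that shuts down pyruvate dehydrogenase, and for Fabp5 Ube3b (r = 0.97) and Zdhhc4 (r = 0.97). Cd36 was closest to Cd84 (r = 0.97) and Gmds (r = 0.96), and Pparg to Patz1 (r = 0.90) and Pgap1 (r = 0.90). Hadha was closest to Ubl3 (r = 0.97) and Gm2a (r = 0.96), a lysosomal glycolipid activator. For the members with no call in any comparison besides Hadha, the genes were Srsf3 and Xrn2 for Msr1 (r = 0.95 each), Kmt2c (r = 0.92) and Shprh (r = 0.85) for Lpl, and Arhgap30 (r = 0.94) and Fli1 (r = 0.93) for Plin2. Among the members, Cpt1a went with Hadhb at r = 0.917 and with Cd36 at r = 0.919, Fabp4 with Hadhb at 0.871, and Hadha with Hadhb at 0.701.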

How the data were processed

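RNA was prepared with RNeasy, amplified by WTA-Ovation FFPE V2 and biotin-labelled with the Encore module, per the labels' protocols. The log2 signals per probe set are the values the authors deposited. Their range (1.46 to 13.3) is the ground for reading them as log2. The authors' summarization and normalization are not given in the sources used here. Array medians over the tested genes were 5.24 to 5.31. No detection calls were analysed, so nothing is known of signal over background, and precision is limited by having 2 arrays a group.

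Probe sets were named from the platform annotation, updated to RefSeq symbols of GRCm38.p6. Of 35557 probe sets, 23410 were listed, 1621 with several symbols were left out, and 21789 with 1 symbol were kept. Where a gene had several (999 genes), the probe set of highest mean was taken. With limma 3.58.1 (R 4.3.3), lmFit estimated a mean for each of the 6 groups from the 12 arrays together, and eBayes moderated the variance (6 residual and 7.69 prior degrees of freedom). There were 9 contrasts, each with Benjamini-Hochberg adjustment over 19938 genes. The procedure was tested on simulated data.

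The members and gene lists were chosen with earlier results of these data known. The text names every member, up to 4 other called genes per pathway list and comparison by adjusted p, up to 2 markers per cell type, and the 2 genes most like each member. From these, genes were picked after their values were seen. Adgre1, Csf1r, Adipoq, Lep, Mertk, Mrc1 and Cpt2 were added as defining or contrasting genes. Other settings tried were a looser adjusted p (0.10), at least 1.5-fold change, quantile normalization or median centring, no genes of the lowest 33.3% by mean, robust eBayes with an intensity trend, array weights, a replicate block (over all groups, or nested in macrophage diet), the mean of probe sets, only the arrays of a comparison, no moderation of the variance, and leaving out each array. No protein sequences were used here.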

Additional observations from a re-analysis of the deposited data

Results flagged for a closer look

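Both calls for a different response to RBC in the 2 macrophage diets were marked for a closer look, because the difference itself passed the test. For Fabp4 the response of high-fat macrophages minus that of chow macrophages was -0.563 ± 0.12 (SE; limma, adjusted p = 0.016), from a response of -0.05 in high-fat macrophages and 0.51 in chow macrophages. For Hadhb it was -0.582 ± 0.14 (adjusted p = 0.027), from -0.10 in high-fat macrophages and 0.48 in chow macrophages. Both lost the call without CNR replicate 2, the array with the lowest value of each gene, with estimates of -0.44 for Fabp4 and -0.46 for Hadhb. Fabp4 also lost its call without HNR replicate 1 (-0.50). Hadhb also lost its call without replicate 1 of CC, CHF, HC or HHF, and without HNR replicate 2 (-0.48). With the 1.5-fold minimum 0 members were called for this difference.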

How the results depend on the processing

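Of 90 comparisons of a member, 12 were called. Fabp4, Cpt1a and Hadhb in unexposed high-fat against unexposed chow macrophages were the 3 called under each of 12 other settings and without every array in turn. No called difference reversed, and of 78 uncalled ones 5 were called under another setting and 4 without an array. The members called were 5 for macrophage diet without RBC (3 with a 1.5-fold minimum, 3 with array weights, 3 on the arrays compared only, 3 to 5 without an array) and 1 with RBC (0 with the 1.5-fold minimum, 0 with no moderation, 0 to 1 without an array). They were 4 for RBC in chow macrophages (0 with the 1.5-fold minimum, 0 to 4 without an array), 0 for RBC in high-fat macrophages (0 to 1), and 2 for the difference of responses (0 with the 1.5-fold minimum, 4 with the intensity trend, 1 with array weights, 0 to 2 without an array). RBC diet gave 0 in every setting. Over all genes, 215 calls for RBC in high-fat macrophages became 336 at an adjusted p below 0.10, 120 with the 1.5-fold minimum, 101 with array weights, 92 on the arrays compared, 50 with no moderation, 141 without HC replicate 1, 120 without HNR replicate 1 and 652 without HNR replicate 2. For RBC in chow macrophages 2539 became 3919 at 0.10, 697 with the 1.5-fold minimum, 1657 with no moderation, 1673 without CNR replicate 1 and 956 without CNR replicate 2. For the difference of responses 1131 became 558 both with no moderation and without CNR replicate 2. For macrophage diet, 2780 without RBC became 1187 with the 1.5-fold minimum, 1777 on the arrays compared and 1600 without CNR replicate 2, and 967 with RBC became 218 with the 1.5-fold minimum, 601 with no moderation, 576 without CHF replicate 1, 564 without CHF replicate 2 and 623 without HC replicate 2. The causes were not tested. The replicate number was not taken as a pairing: deviations of same-numbered arrays within a diet correlated from -0.08 to 0.34. With it as a replicate block the members called stayed at 0, 4, 2, 5 and 1 (RBC in high-fat macrophages, RBC in chow macrophages, difference of responses, diet without RBC, diet with RBC). All-gene calls for diet without RBC were 2706 with the block over all groups. With the block nested in macrophage diet they were 2979, against 2780 with no block.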

Other observations

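Some uptake genes outside the 10 changed in ways that the members did not show. Olr1, the lectin-like receptor for oxidised LDL, read 6.59 and 6.80 in unexposed high-fat macrophages (HNR), and lay between 7.97 and 8.55 on the other 10 arrays. RBC raised it in high-fat macrophages by 1.70 ± 0.11 (SE; limma, adjusted p = 7.0e-07), and the response differed from that of chow macrophages by 1.73 ± 0.15. Both differences kept their call with any array left out. Fabp3, the heart-type fatty acid binding protein, read 7.33 and 7.67 in HNR, against 9.09 and 8.96 in CNR, a difference of -1.53 ± 0.13, opposite in sign to Fabp4. RBC lowered Fabp3 in chow macrophages by 1.13 on the log2 scale (-1.13 ± 0.11).

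Marco, a class A scavenger receptor like Msr1, read 5.27 and 5.50 in HNR, against 7.27 and 7.05 in CNR, a difference of -1.77 ± 0.14 (limma, adjusted p = 6.0e-07). It was lower in high-fat macrophages with RBC as well, at -1.08 ± 0.10, and no high-fat array reached the lowest chow array (5.33 to 5.71 in exposed high-fat macrophages, against 6.34 to 6.80 in exposed chow macrophages). These genes were taken by the naming rule from the uptake list, and B cell markers and Adgre1 moved between the same groups; their part in these values was not tested.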
